A study of Mus musculus with 11 samples.

Results

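Expression of the tumour necrosis factor (TNF) superfamily was described in uninjured and injured regions of mouse hearts. The members were taken by symbol from the table of 15274 genes: every gene whose symbol begins with Tnfsf (ligands) or Tnfrsf (receptors), together with Tnf, Traf1 to Traf6, Fas, Cd40, Cd27, Ltb and Ltbr, which gave 42 genes. The choice was by symbol alone, although earlier results of these data were known when it was made. RNA sequencing covered 11 libraries from 6 mice of 8 weeks, titled day 7: uninjured regions (n = 3) and injured regions (n = 3) of C57BL/6J (B6) hearts, and uninjured regions (n = 3) and injured regions (n = 2) of C3H/HeJ (C3H) hearts. Both regions came from the same heart in 5 mice, and C3H mouse 3 gave an uninjured region only. Not given in the sources used here is how the hearts were injured. No engineered allele or agent is named for either strain, and no group is named as hearts without injury. In the 5 mice with both regions an uninjured region is a region of an injured heart, and for C3H mouse 3 no injured region was there to show this.

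Ligands of the TNF superfamily are trimeric proteins of the cell surface, many of which can be shed, and they signal by clustering their receptors. Receptors with a death domain recruit adaptors such as Tradd and Fadd and can lead to caspase activation, whereas most of the others bind TNF receptor-associated factors (TRAFs), adaptors that lead to NF-kappa B and stress kinases. In the heart the family is known for the inflammatory response to infarction and other injury, in which infiltrating myeloid cells, fibroblasts and cardiomyocytes all express members.

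Values are normalised read counts, that is, reads divided by a size factor for each library. Of the 42 members 41 reached the level required for testing (at least 10 in at least 2 libraries); the other one, Tnfsf4, the ligand of Tnfrsf4, lay between 0 and 12.1 in all libraries. Changes are log2(normalised count + 1), injured minus uninjured or C3H minus B6, with a standard error (SE), from limma across 14751 genes. A member was called when its p-value, adjusted over all 14751 genes by the Benjamini-Hochberg method, was below 0.05.

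In injured C3H hearts 15 of 41 members passed the test, 13 higher and 2 lower, against a background of 30.7% of all genes tested in either direction (36.6% of the members), 15.3% higher and 15.4% lower. The share called was close to the background and the split by direction was not: the median change was 0.92 over the members and 0.01 over all genes. The receptors Tnfrsf1b, Tnfrsf11a, Tnfrsf26 and Tnfrsf13b and the ligands Tnfsf8 and Tnfsf11 had the largest rises, and Tnfrsf12a and Tnfrsf19 fell. Of these, Tnfrsf13b was tested only because of its values in the injured C3H libraries. By role, 3 of 12 tested ligands, 3 of 5 death domain receptors, 2 of 3 decoy receptors, 1 of 9 lymphocyte receptors, 3 of 6 other receptors and 1 of 6 TRAFs rose. In 22 of 41 members both injured C3H libraries lay above the 3 uninjured ones, and in 2 both lay below, against 29.6% and 29.7% of all genes. The count was 7, all higher, without injured C3H library 2.

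In B6 hearts 0 of 41 members passed limma's test for injury, against a background of 0.0136%, or 2 genes. At an unadjusted p below 0.05 there were 5 members by limma (Traf1, Tnfsf13, Cd27, Tnfrsf12a and Tnfrsf1b), 6 by edgeR and 6 by DESeq2, all with higher values in the injured region, against 6.87% of all genes by limma. All 3 injured values lay above all 3 uninjured values in 9 of 41 members (background 9.83%) and below them in 0 (background 7.69%). Cd27 and Tnfrsf13c, both among those members, reached a value of 10 in injured B6 regions only. That they were tested thus depended on the group in which they were high. The median change of the members was 0.40, against 0.01 over all genes. Injury in B6 and injury in C3H share no library.

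**Figure D1:**
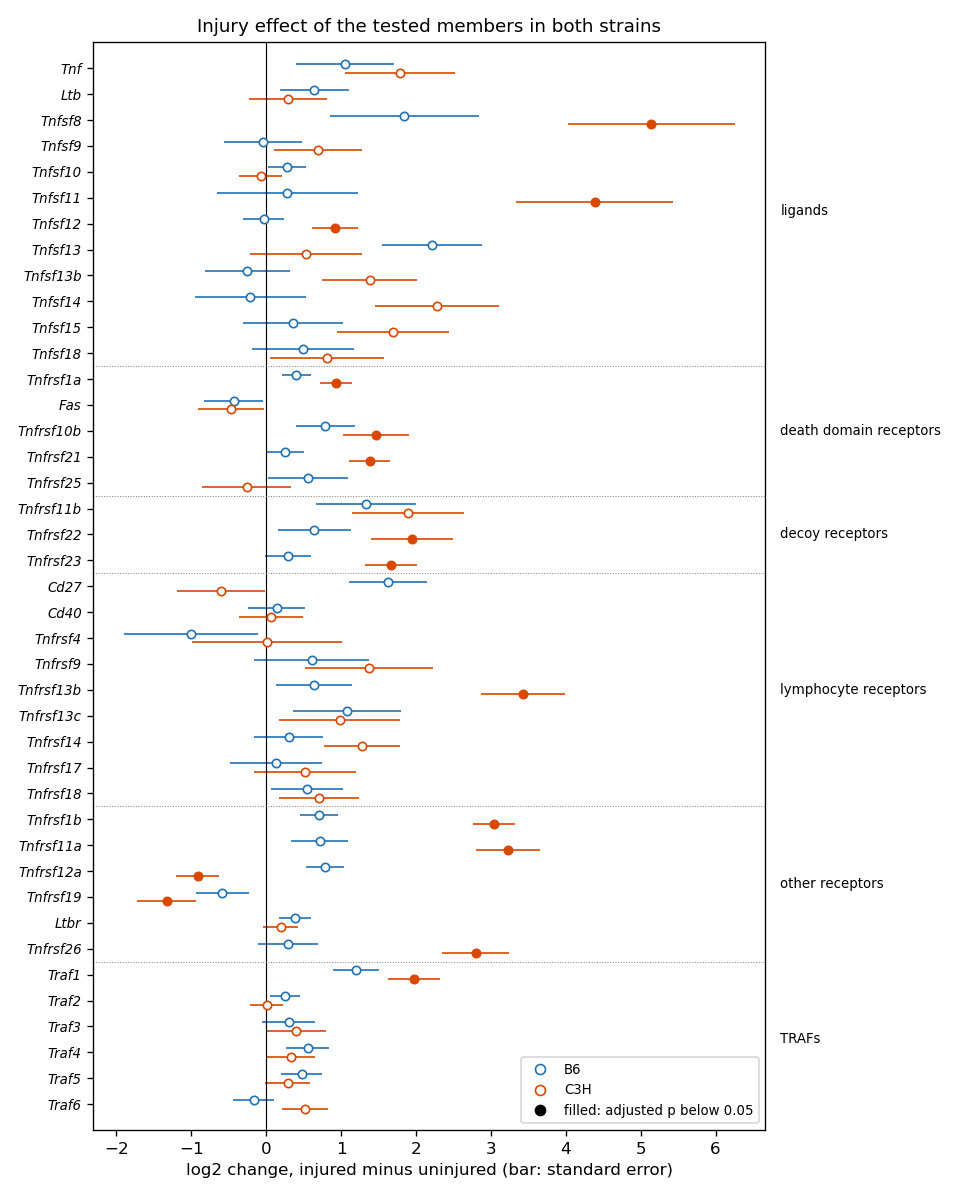
Log2 change of the 41 tested members between injured and uninjured regions in B6 (blue, n = 3 against 3) and C3H (orange, n = 2 against 3), with the standard error as a bar and filled points where the adjusted p was below 0.05. The 15 filled points are all of C3H, 13 to the right of 0 and 2, Tnfrsf12a and Tnfrsf19, to the left.

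The injured regions also differed in the levels of some cell type markers. The summed normalised count of 8 cardiomyocyte markers was 1359690 to 1555620 in uninjured and 467803 to 488029 in injured C3H regions, and in B6 1185730 to 1431880 and 693065 to 866656. The sum of 10 macrophage and monocyte markers was 12931.1 to 22636 and 76648 to 134238 in C3H, where 9 of the 10 rose, and 23461.5 to 32763.6 and 37252.4 to 51870.8 in B6. For 7 fibroblast markers the sums were 40401.8 to 153916 and 329974 to 456701 in C3H (4 of 7 rose), and 96594.6 to 187497 and 201470 to 230456 in B6. In injured C3H regions most of that sum was Col1a1 and Col1a2 (means of 195310 and 156817). The C3H mean of Tcf21 was 363 in uninjured and 294 in injured regions and that of Dcn 19803 and 21620, while those of Pdgfra, Lum and Thy1 were higher in injured regions. Sums of 5 neutrophil markers overlapped between regions, with 64.4 to 1572 and 310 to 1287 in C3H and 115 to 548 and 219 to 739 in B6. Those of 6 endothelial markers overlapped too, with 14004 to 22656 and 12215 to 16821 in C3H and 14697 to 21540 and 16906 to 21215 in B6. The part of these cells in the members' changes was not tested, and in whole tissue more cells of a type and more RNA per cell cannot be told apart.

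The smallest p-value of the members in C3H was that of Tnfrsf1b (TNFR2), which binds TNF, lacks a death domain and signals through TRAFs. Its values in uninjured B6 regions were 868, 620 and 577, and in injured B6 regions 926, 1291 and 1131. In C3H they were 332, 339 and 259 in uninjured regions and 1914 and 3385 in injured ones. The uninjured C3H libraries were thus the lowest of the 11 and the injured C3H libraries the highest, and in neither strain did the injured and uninjured values overlap. The change was 3.04 (SE 0.28, adjusted p = 4.02e-05) in C3H and 0.71 (SE 0.25, adjusted p = 0.364) in B6. Mouse by mouse it was 2.52 and 3.32 in C3H and 0.09, 1.06 and 0.97 in B6.

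The change of Tnfrsf1b differed between the strains by 2.34 (SE 0.38, adjusted p = 0.0123). Without injured C3H library 2, the higher of the pair, that difference was 1.93 with an adjusted p of 0.115. Tnfrsf1a (TNFR1), the death domain receptor for the same ligand, was 2095, 1504 and 1591 in uninjured and 2363, 2417 and 2035 in injured B6 regions. In C3H it was 1273, 1593 and 1395 and then 2435 and 3009. The injured C3H values lay above the uninjured ones, a rise of 0.94 (SE 0.22, adjusted p = 0.00720), whereas the B6 values overlapped, with a change of 0.40 (SE 0.19, adjusted p = 0.383). Without injured C3H library 2 the adjusted p in C3H was 0.0917 with a change of 0.78, and the change did not pass the test for a strain difference (0.53, SE 0.29, adjusted p = 0.439).

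Per kilobase of exon, Tnfrsf1a had the highest mean level of any member in every group but uninjured C3H regions, where Tnfrsf12a was higher (690 against 548 normalised counts per kb). The ratio of Tnfrsf1b to Tnfrsf1a, both per kb, was 0.246 to 0.281 in uninjured and 0.266 to 0.377 in injured B6 regions. In C3H it was 0.126 to 0.177 in uninjured regions and 0.533 and 0.763 in injured ones. The C3H ratios therefore lay on either side of all 6 B6 ratios. Tnf itself, the ligand of both, was read at low counts: 35.5, 8.30 and 11.8 in uninjured and 21.2, 69.1 and 24.1 in injured B6 regions, and 4.95, 22.0 and 12.4 and then 41.5 and 41.0 in C3H. Its change was not called in C3H (1.79, SE 0.73, adjusted p = 0.0846) or B6 (1.06, SE 0.66, adjusted p = 0.475). With the mouse as a random block the C3H change of Tnf was 1.81 with an adjusted p of 0.0469, and without uninjured C3H library 2 it was 2.24 with an adjusted p of 0.0496.

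Tnfrsf12a (Fn14), the receptor of the TWEAK ligand Tnfsf12 and a gene known to be induced in damaged tissue, had changes of opposite sign in the strains. Its values in B6 were 732, 442 and 547 in uninjured and 1199, 1061 and 718 in injured regions. In C3H they were 1167, 1386 and 1443 in uninjured and 841 and 590 in injured regions. The C3H groups did not overlap, while the lowest injured B6 value lay just under the highest uninjured one, although the injured region was higher in each of the 3 B6 mice. It fell by 0.91 in C3H (SE 0.28, adjusted p = 0.0297) and its change in B6 was 0.79 (SE 0.25, adjusted p = 0.364). Leaving out uninjured C3H library 2, uninjured C3H library 3 or injured C3H library 2 gave adjusted p-values of 0.0654, 0.0847 and 0.250 in C3H.

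The difference of the Tnfrsf12a change between strains was -1.70 (SE 0.38, adjusted p = 0.0492). It missed the threshold when any 1 library but injured B6 library 3 was left out, with values of -1.96 to -1.44 and an adjusted p of at most 0.354 over all alternatives. Its ligand Tnfsf12 was 680, 458 and 342 in uninjured and 560, 452 and 393 in injured B6 regions, and 362, 383 and 551 and then 732 and 880 in C3H. The groups did not overlap in C3H and did in B6. The C3H rise was 0.92 (SE 0.30, adjusted p = 0.0386) and the B6 change -0.03 (SE 0.27, adjusted p = 0.964), but the test of their difference was not passed (0.95, SE 0.41, adjusted p = 0.316). The C3H call of Tnfsf12 was lost without injured B6 library 2 (adjusted p = 0.0578), uninjured C3H library 1 (0.0889) or 2 (0.0903) and injured C3H library 1 (0.0930) or 2 (0.221). Tnfsf12 shares its exons in part with the read-through gene Tnfsfm13, so its reads are uncertain.

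Set against its receptor, Tnfsf12 per kb was 0.797 to 1.32 times Tnfrsf12a in uninjured and 0.543 to 0.698 times in injured B6 regions. In C3H the ratio was 0.353 to 0.487 in uninjured regions and 1.11 and 1.90 in injured ones. The order of the 2 regions was thus opposite in the strains: the injured region had the lower ratios in B6 and the higher ones in C3H.

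**Figure D2:**
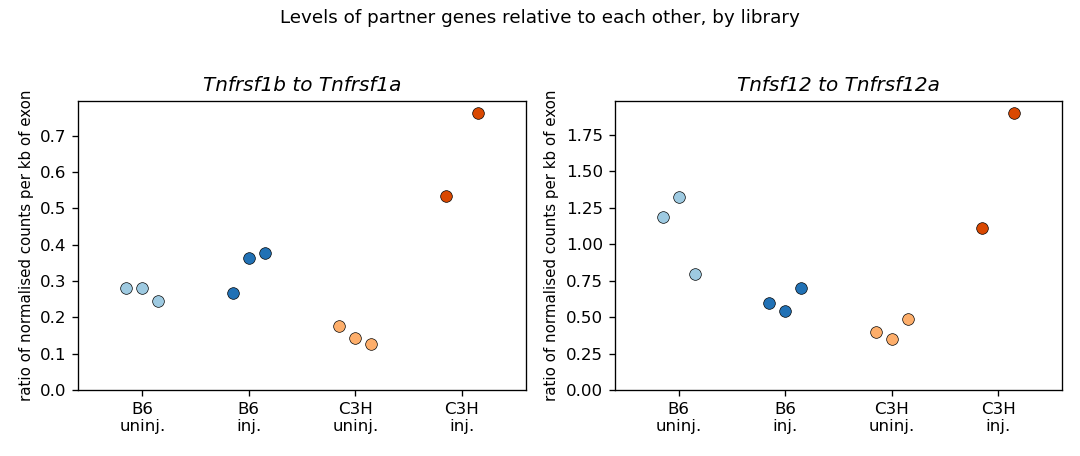
Ratio of Tnfrsf1b to Tnfrsf1a (left) and of Tnfsf12 to Tnfrsf12a (right), each in normalised counts per kb of exon, with 1 point for each of the 11 libraries and both axes starting at 0. The injured C3H libraries, at 0.533 and 0.763 on the left, are above all others, and on the right the injured regions are lower in B6 and higher in C3H.

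Tnfrsf11a (RANK), the receptor of Tnfsf11 (RANKL) and known for driving the formation of osteoclasts, was 138, 89.2 and 157 in uninjured and 134, 242 and 268 in injured B6 regions. In C3H it was 123, 102 and 68.4 in uninjured and 600 and 1345 in injured regions. The injured C3H libraries were far above all others, while the B6 groups overlapped. It rose by 3.23 in C3H (SE 0.43, adjusted p = 3.39e-04), and the B6 change was 0.72 (SE 0.38, adjusted p = 0.422). Their difference, 2.51 (SE 0.57), had an adjusted p of 0.0530 by limma and was not called. It was called by DESeq2 (2.58, adjusted p = 8.75e-04) and edgeR (2.54, adjusted p = 0.0440), and by limma under quantile normalisation (adjusted p = 0.0431), with a pseudocount of 5 (0.0459) and with a filter of at least 50 (0.0484). With the mouse as a random block it was 2.42 with an adjusted p of 0.0145, and with the mouse as a fixed block 2.28 with an adjusted p of 0.0382. The difference was also called without uninjured C3H library 1 (2.70, adjusted p = 0.0457) or injured C3H library 1 (3.10, adjusted p = 0.0384).

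The ligand Tnfsf11 was 11.8, 18.7 and 5.89 in uninjured and 14.7, 31.4 and 5.16 in injured B6 regions, and 0.990, 13.6 and 0 and then 39.8 and 100 in C3H. Its rise of 4.39 in C3H (SE 1.05, adjusted p = 0.00886) rested on 14 reads in the uninjured and 188 in the injured libraries, and without injured C3H library 2 the adjusted p was 0.100 with a change of 3.73. Without uninjured C3H library 2 the strain difference of Tnfsf11 was called as well (5.23, adjusted p = 0.0482), whereas with all libraries it was 4.10 (SE 1.41, adjusted p = 0.199). Tnfrsf11b (osteoprotegerin), the soluble decoy receptor for RANKL, was 68.6, 27.0 and 40.1 and then 197, 75.4 and 83.4 in B6, and 64.4, 11.5 and 47.9 and then 245 and 65.0 in C3H. In both strains every injured value lay above every uninjured one, yet the change passed limma's test neither in B6 (1.33, SE 0.67, adjusted p = 0.401) nor in C3H (1.90, SE 0.75, adjusted p = 0.0746). By DESeq2 the C3H change of Tnfrsf11b was called (1.90, adjusted p = 0.0246). With the mouse as a random block it was 2.00 with an adjusted p of 0.00989, with the mouse as a fixed block 2.15 with an adjusted p of 0.00142, and without uninjured C3H library 1 it was 2.36 with an adjusted p of 0.0381.

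Some markers of osteoclasts were also higher in injured C3H regions. The sum of 8 such genes was 1017.58 to 1270.93 in uninjured and 8976.77 to 25859.5 in injured C3H regions, against 1072.32 to 1557.07 and 1549.82 to 1974.94 in B6, and 5 of the 6 tested rose in C3H. Most of the sum in injured C3H regions was Ctsk, Acp5, Atp6v0d2 and Nfatc1 (means of 8780, 4650, 2675 and 1236). Oscar was 5.23 to 7.99 in uninjured C3H regions and 6.05 and 31.8 in injured ones. Ocstamp was 0 to 0.990 and then 2.59 and 45.2. Calcr, the calcitonin receptor, was at 0 in all libraries but injured C3H library 2 (14.8), and several of the others, such as Acp5 and Ctsk, are also expressed by macrophages. Of the tested markers, Dcstamp reached the level required for testing in the injured C3H libraries only (13.0 and 41.7). That it was tested thus depended on those libraries. The part of the osteoclast markers in the changes of Tnfrsf11a and Tnfsf11 was not tested.

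Promoter windows are shown for Tnfrsf1b and Tnfrsf12a, the 2 members called for a strain difference, and for Tnfrsf11a, which had the next smallest p-value in that test. Each window runs from 250 bases before to 50 bases after a start of the gene in RefSeq (build GRCm38.p6), 5′ to 3′ on the gene's strand, with capitals marking GC boxes (GGGCGG) and the core of the PU.1 site (GAGGAA) on either strand, the reverse strand reading CCGCCC and TTCCTC.
Tnfrsf1b (chr4:145246821-145247120, minus strand): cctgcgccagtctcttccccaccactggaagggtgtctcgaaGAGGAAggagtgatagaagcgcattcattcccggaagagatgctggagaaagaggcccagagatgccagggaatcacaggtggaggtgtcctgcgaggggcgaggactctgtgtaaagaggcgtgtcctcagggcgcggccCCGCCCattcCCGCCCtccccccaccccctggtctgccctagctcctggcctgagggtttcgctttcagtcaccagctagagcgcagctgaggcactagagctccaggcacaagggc
Tnfrsf11a (chr1:105780473-105780772, plus strand): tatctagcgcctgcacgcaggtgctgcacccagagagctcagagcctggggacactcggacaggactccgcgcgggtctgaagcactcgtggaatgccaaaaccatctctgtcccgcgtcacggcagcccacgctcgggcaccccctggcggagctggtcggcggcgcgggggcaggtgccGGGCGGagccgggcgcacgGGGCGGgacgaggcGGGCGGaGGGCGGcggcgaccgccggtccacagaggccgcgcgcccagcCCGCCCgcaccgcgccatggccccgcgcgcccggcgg
Tnfrsf12a (chr17:23677400-23677699, minus strand): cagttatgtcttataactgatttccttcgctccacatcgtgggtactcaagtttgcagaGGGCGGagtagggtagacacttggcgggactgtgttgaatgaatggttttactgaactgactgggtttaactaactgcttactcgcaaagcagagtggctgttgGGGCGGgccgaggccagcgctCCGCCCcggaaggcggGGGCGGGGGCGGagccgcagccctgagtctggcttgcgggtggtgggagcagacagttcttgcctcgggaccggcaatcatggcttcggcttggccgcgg
The windows of Tnfrsf11a and Tnfrsf12a held 5 GC boxes each, the one of Tnfrsf1b held 2 and, at position -208 from the start, a PU.1 core, and neither a kappa B consensus nor an AP-1 site (TGANTCA) matched in any of the 3. The table held windows for 34 members (38 windows).

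Of the 9 members that rose in C3H and had a window, 4 held a GC box (44.4%, against 35.7% of all 32851 windows), 2 a PU.1 core (22.2% against 28.3%), 0 an AP-1 site (7.81% of all) and 0 a kappa B consensus (8.46% of all). Both strands were searched, no motif match overlapped a match of another motif in the 3 windows shown, and the motifs and windows were chosen after the values were seen. A match describes letters only, and the absence of one says nothing about the factor.

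**Figure D3:**
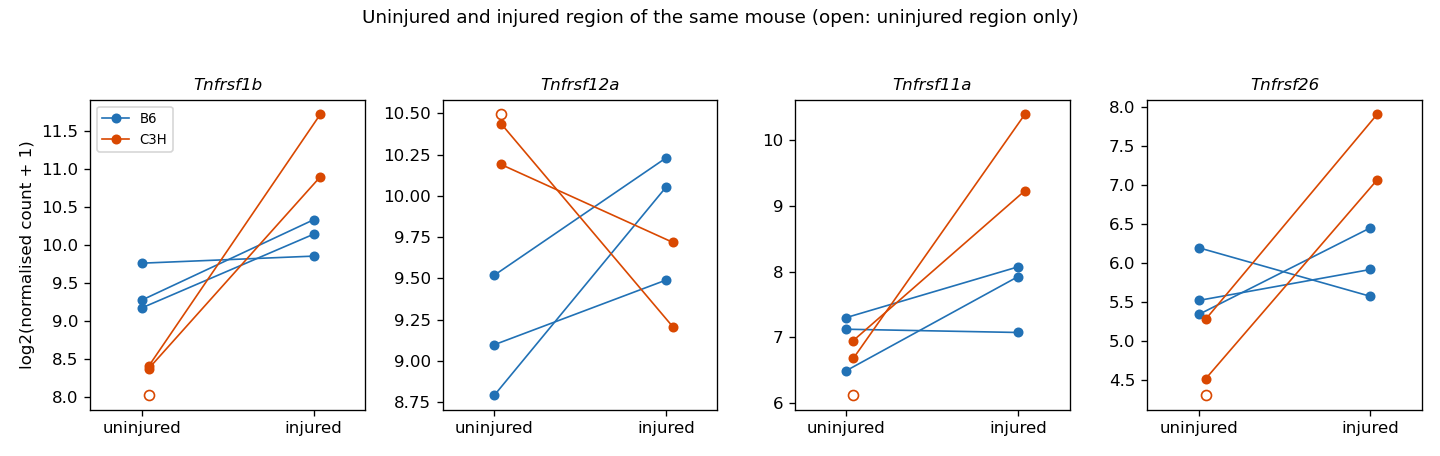
Tnfrsf1b, Tnfrsf12a, Tnfrsf11a and Tnfrsf26 as log2(normalised count + 1) in the uninjured and injured region of each mouse, lines joining the regions of 1 mouse (B6 blue, C3H orange) and an open circle for C3H mouse 3, which has an uninjured region only. Tnfrsf12a is higher in the injured region of all 3 B6 mice and lower in that of both C3H mice.

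Among the other death domain receptors, Tnfrsf21 (DR6) was 286, 357 and 457 in uninjured and 324, 463 and 532 in injured B6 regions, and 467, 393 and 360 and then 965 and 1156 in C3H. Both injured C3H libraries stood above the other 9. It rose by 1.38 in C3H (SE 0.27, adjusted p = 0.00318), against 0.26 in B6 (SE 0.24, adjusted p = 0.635). The difference of 1.13 (SE 0.37) had an adjusted p of 0.180, and of 0.0440 with the mouse as a random block. Tnfrsf10b, the mouse receptor for TRAIL, was 94.7, 41.5 and 111 and then 122, 154 and 122 in B6, and 75.3, 49.2 and 42.6 and then 201 and 114 in C3H. In both strains the groups did not overlap, with a rise of 1.47 in C3H (SE 0.44, adjusted p = 0.0247) and a change of 0.79 in B6 (SE 0.39, adjusted p = 0.393). That call was lost without uninjured C3H library 2 (adjusted p = 0.0549) or 3 (0.0783) and without injured C3H library 1 (0.205) or 2 (0.0501), and under quantile normalisation (0.0545).

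Tnfsf10 (TRAIL), the ligand of Tnfrsf10b, was at similar values in all groups: 425, 425 and 705 and then 531, 748 and 573 in B6, and 666, 524 and 464 and then 606 and 444 in C3H. Its changes were 0.28 (SE 0.26) in B6 and -0.07 (SE 0.29) in C3H, with adjusted p-values of 0.621 and 0.869. Fas, the death receptor for Fas ligand, was 399, 438 and 240 and then 322, 237 and 222 in B6, and 231, 774 and 305 and then 256 and 293 in C3H. uninjured C3H library 2 was the highest of all, and the changes of -0.43 in B6 (SE 0.39, adjusted p = 0.618) and -0.47 in C3H (SE 0.44, adjusted p = 0.445) were not called. Without that library the C3H change of Fas was 0.047. Tnfrsf25 (DR3) ran from 12.7 to 71.0 over all libraries and was not called, with 0.56 (SE 0.53) in B6 and -0.26 (SE 0.60) in C3H.

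Tnfrsf22 and Tnfrsf23 are decoy TRAIL receptors that lie side by side on chromosome 7, next to Tnfrsf26. Tnfrsf23 was 202, 110 and 192 and then 208, 207 and 185 in B6, and 171, 86.9 and 112 and then 445 and 321 in C3H. For Tnfrsf22 the B6 values were 35.5, 14.5 and 66.0 and then 36.7, 54.2 and 68.8, and the C3H values 32.7, 22.0 and 19.5 and then 101 and 91.2. In both genes the injured C3H libraries were the highest of the 11, with rises of 1.66 (SE 0.35, adjusted p = 0.00418) for Tnfrsf23 and 1.95 (SE 0.55, adjusted p = 0.0188) for Tnfrsf22. In B6 their changes were 0.30 (SE 0.31, adjusted p = 0.667) and 0.65 (SE 0.49, adjusted p = 0.552). The call of Tnfrsf22 was lost without uninjured C3H library 3 (adjusted p = 0.0582) or injured C3H library 1 (0.0996) or 2 (0.0936). Their transcripts were 88.2% identical over 78.8% of Tnfrsf22, with a run of 306 identical bases, so the split of reads between both is uncertain.

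Tnfrsf26, whose transcript did not align to that of Tnfrsf22 or Tnfrsf23, was 72.2, 39.4 and 44.8 and then 46.5, 86.4 and 59.3 in B6, and 21.8, 37.7 and 18.6 and then 133 and 240 in C3H. The 3 uninjured C3H values were the lowest and the 2 injured ones the highest of the 11. It rose by 2.80 in C3H (SE 0.45, adjusted p = 0.00101), against 0.30 in B6 (SE 0.40, adjusted p = 0.750). The difference of 2.50 (SE 0.60) had an adjusted p of 0.0638 by limma and was called by DESeq2 (2.56, adjusted p = 0.00317), with the mouse as a random block (2.42, adjusted p = 0.0162) and without uninjured C3H library 2 (2.79, adjusted p = 0.0430). Tnfrsf19 (TROY), a receptor known from epithelial and neural progenitors, was 61.5, 68.4 and 115 and then 35.9, 67.6 and 58.5 in B6, and 98.0, 153 and 114 and then 40.6 and 54.4 in C3H. It fell by 1.33 in C3H (SE 0.39, adjusted p = 0.0239), where the groups did not overlap, and its change in B6 was -0.58 (SE 0.35, adjusted p = 0.463). The fall was not called without uninjured C3H library 2 (adjusted p = 0.0686) or 3 (0.0534) or injured C3H library 1 (0.153) or 2 (0.0751).

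**Figure D4:**
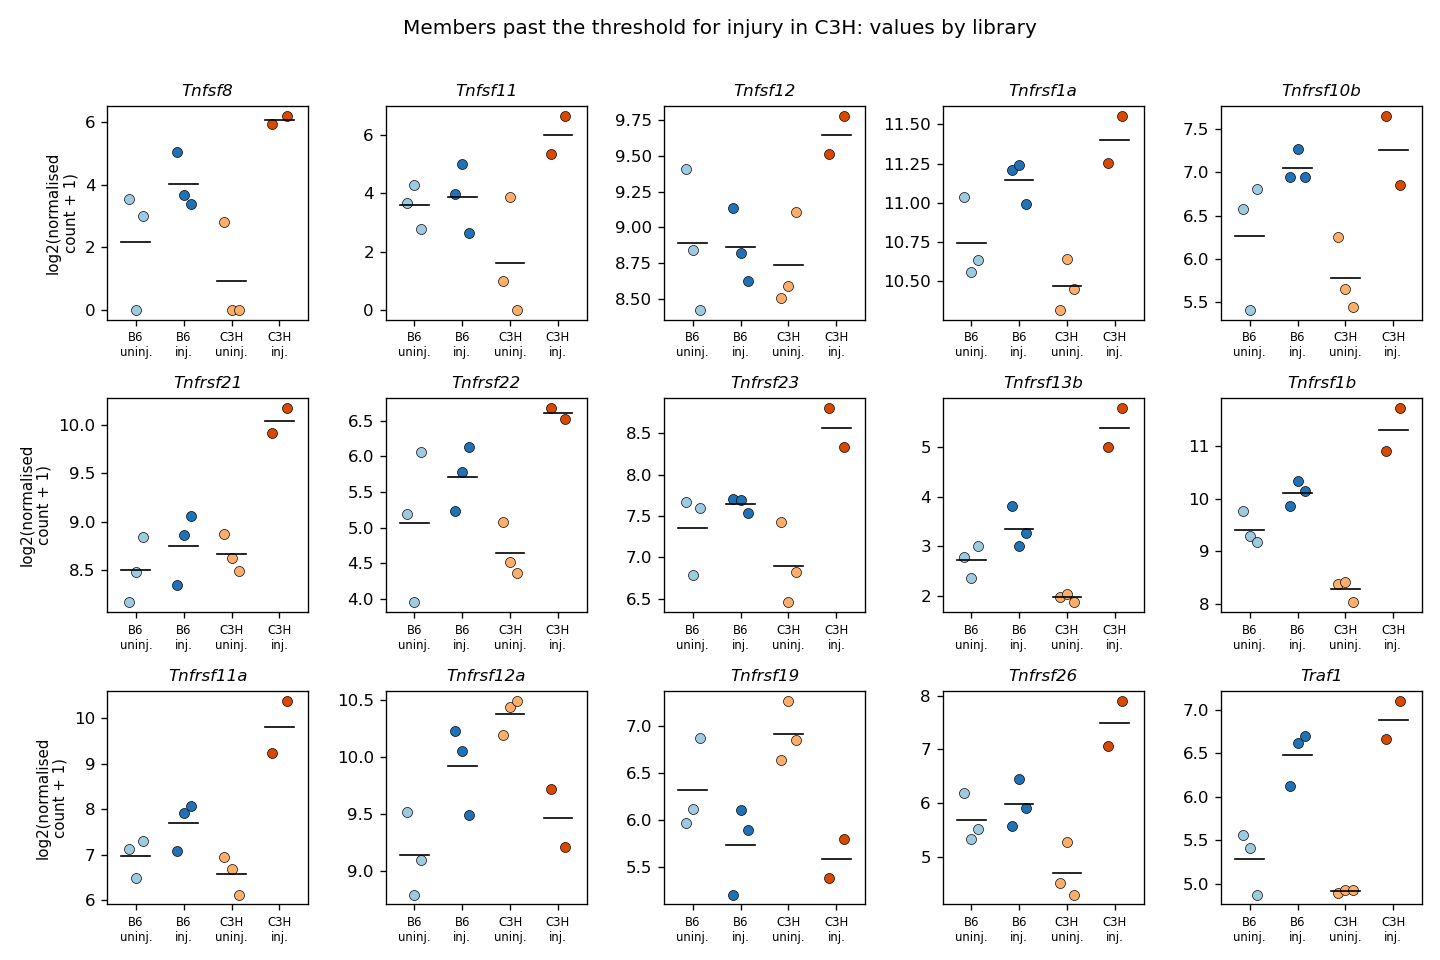
The 15 members past the threshold for injury in C3H, as log2(normalised count + 1) in each of the 11 libraries, with the mean of each group as a line and a separate axis range for each gene. In 13 panels both injured C3H libraries lie above the 3 uninjured ones, and in the panels of Tnfrsf12a and Tnfrsf19 both lie below.

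Of the receptors of lymphocyte costimulation and survival, Tnfrsf13b (TACI), a receptor for BAFF (Tnfsf13b) and APRIL (Tnfsf13), was the only one of 9 called in C3H. It was 5.92, 4.15 and 7.07 in uninjured and 13.0, 7.07 and 8.60 in injured B6 regions, and 2.97, 3.14 and 2.66 and then 31.1 and 54.4 in C3H. The C3H rise of 3.43 (SE 0.56, adjusted p = 0.00122) rested on 9 reads in the uninjured and 113 in the injured libraries. In no uninjured library did Tnfrsf13b reach the level required for testing. Without the injured C3H libraries it would not have been tested, so its testing depended on the group in which it was high. In B6 the change was 0.64 (SE 0.50, adjusted p = 0.566), and the difference of 2.79 (SE 0.76) had an adjusted p of 0.104 by limma, of 0.0479 by DESeq2 (3.17) and of 0.0273 with the mouse as a random block. The sum of 5 B cell markers was 28.3 to 75.3 in uninjured and 83.9 to 92.6 in injured C3H regions, with 0 of 5 called, and its part in the change was not tested.

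The ligand Tnfsf13b was 118, 85.0 and 25.9 and then 63.6, 60.5 and 40.4 in B6, and 21.8, 60.7 and 21.3 and then 60.5 and 109 in C3H. The groups overlapped in both strains, and the C3H change of 1.38 (SE 0.63) had an adjusted p of 0.116, of 0.0497 with the mouse as a random block, of 0.0478 without uninjured B6 library 3 and of 0.0460 without uninjured C3H library 2. Tnfsf13, which shares exon bases with the read-through gene Tnfsfm13, lay between 0 and 2.36 in uninjured B6 regions and was 5.71, 8.64 and 10.3 in injured ones. Its change there was 2.21 (SE 0.67, adjusted p = 0.364), and in C3H, with 5.33 to 13.6 and then 7.78 and 18.4, it was 0.53 (SE 0.74, adjusted p = 0.616).

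Cd40, the costimulatory receptor of B cells and macrophages, was 157, 139 and 90.7 and then 154, 153 and 113 in B6, and 53.5, 62.8 and 113 and then 112 and 50.9 in C3H. The groups overlapped in both strains, with changes of 0.14 (SE 0.38, adjusted p = 0.886) and 0.06 (SE 0.42, adjusted p = 0.922). Cd27, the T cell receptor for CD70, was 3.55 to 7.07 in uninjured and 13.8 to 22.8 in injured B6 regions, a change of 1.63 (SE 0.52) that was not called (adjusted p = 0.364). Without the injured B6 libraries Cd27 would not have been tested. In C3H its values were 4.44 to 9.90 and then 4.32 and 4.95 (-0.60, SE 0.59, adjusted p = 0.462). The other lymphocyte receptors, Tnfrsf4, Tnfrsf9, Tnfrsf13c, Tnfrsf14, Tnfrsf17 and Tnfrsf18, had C3H changes of 0.01 to 1.37, none called by limma, and all but Tnfrsf14 lay below 40 in every library. Tnfrsf14 (HVEM), the receptor of LIGHT, had a C3H change of 1.28 (SE 0.51, adjusted p = 0.0760), which was called by DESeq2 (1.26, adjusted p = 0.0454), with the mouse as a random block (1.17, adjusted p = 0.0415), without injured B6 library 1 (adjusted p = 0.0330) and without uninjured C3H library 1 (0.0455). The sum of 9 T and NK cell markers was 60.4 to 130 and then 146 to 180 in C3H and 82.5 to 158 and then 159 to 269 in B6. In C3H the mean of Cd4 was 25.2 and then 63.9, and the means of Lck, Nkg7, Klrb1c and Cd3d were also higher in injured regions. The C3H means of Cd3e (20.7 and then 18.9), Cd3g (2.33 and 2.63), Cd8a (3.38 and 3.93) and Ncr1 (10.4 and 10.0) were similar in the regions.

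Tnfsf8 (CD30 ligand) had the largest fitted rise of any member, on few reads. It was 10.6, 0 and 7.07 and then 31.8, 11.8 and 9.46 in B6, and 5.94, 0 and 0 and then 60.5 and 72.8 in C3H. The uninjured C3H libraries held 6 reads together and the injured ones 173, with a change of 5.14 (SE 1.11, adjusted p = 0.00515), and without injured C3H library 2 the adjusted p was 0.0531 with a change of 5.01. In B6 the change was 1.85 (SE 1.00, adjusted p = 0.426), and the difference was not called (3.29, SE 1.49, adjusted p = 0.346). Its receptor, Tnfrsf8, was not among the 15274 genes under that symbol. Among the ligands not named so far, Ltb, Tnfsf9, Tnfsf14 and Tnfsf18 had C3H changes of 0.30 to 2.28 and B6 changes of -0.21 to 0.64, none called by limma. The C3H change of Tnfsf14 (LIGHT), 2.28 (SE 0.83, adjusted p = 0.0554), was called with a pseudocount of 5 (1.33, adjusted p = 0.0418), with the mouse as a random block (1.94, adjusted p = 0.0385) and without uninjured C3H library 1 (2.81, adjusted p = 0.0294).

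Traf1, an adaptor known as a target of NF-kappa B, was the only TRAF called. It was 46.1, 41.5 and 28.3 in uninjured and 68.5, 97.4 and 103 in injured B6 regions, and 28.7, 29.3 and 29.3 and then 100 and 137 in C3H. In both strains all injured values lay above all uninjured ones. The rise was 1.97 in C3H (SE 0.35, adjusted p = 0.00181), and the B6 change of 1.20 (SE 0.31), the one with the smallest p-value of the members in B6, had an adjusted p of 0.364. The test of a strain difference was not passed (0.77, SE 0.47, adjusted p = 0.494). The other 5 TRAFs had C3H changes of 0.01 (Traf2) to 0.52 (Traf6) and B6 changes of -0.16 (Traf6) to 0.55 (Traf4), none called. Ltbr, the lymphotoxin beta receptor, was among the most abundant members per kb in all groups and had changes of 0.38 (SE 0.21) in B6 and 0.19 (SE 0.24) in C3H, neither called.

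Injury in C3H differed from injury in B6 by the test of the difference itself in 2 of 41 members, Tnfrsf1b upward and Tnfrsf12a downward, against a background of 1.57% (1.5% upward and 0.0678% downward). At an unadjusted p below 0.05 there were 12 of 41, against 14.1% of all genes. DESeq2 called 5 (Tnfrsf1b, Tnfrsf11a, Tnfrsf12a, Tnfrsf13b and Tnfrsf26) and edgeR 3 (Tnfrsf1b, Tnfrsf11a and Tnfrsf12a). With the mouse as a random block 6 members were called (Tnfrsf1b, Tnfrsf11a, Tnfrsf12a, Tnfrsf13b, Tnfrsf21 and Tnfrsf26), and with the mouse as a fixed block 3 (Tnfrsf1b, Tnfrsf11a and Tnfrsf12a). There were 0 without injured C3H library 2. The median difference over the members was 0.68, against -0.02 over all genes, and 27 of 41 were above 0 (background 48.7%). Over all genes DESeq2 called 722, edgeR 233, the random block 777 and the fixed block 485, against the 231 genes of the 1.57% background.

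Uninjured regions of both strains were compared next. All 5 C3H libraries had Xist, the X inactivation transcript, at 1840 to 8478 and a summed count of Y-linked genes of 0.888 to 12.1, and all 6 B6 libraries had 3.14 to 12.2 and 2824 to 4633, so strain and sex cannot be told apart here, in these comparisons and in the differences of the injury effect. Reads were aligned to a B6 genome, and the effect of C3H variants on the counts was not tested. In uninjured regions 3 of 41 members were called (background 3.1%, of which 1.32% higher and 1.79% lower in C3H): Tnfrsf12a was higher in C3H by 1.24 (SE 0.25, adjusted p = 0.0216), Tnfrsf1b lower by 1.14 (-1.14, SE 0.25, adjusted p = 0.0316), and Tnfsf15 (TL1A), the ligand of Tnfrsf25, lower with a change of -2.72 (SE 0.67, adjusted p = 0.0499).

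Tnfsf15 was 37.9, 12.4 and 30.6 in uninjured and 46.5, 34.6 and 19.8 in injured B6 regions, and 8.91, 2.09 and 0.888 and then 15.6 and 8.48 in C3H. In each region all C3H values were below all B6 values. Its call in uninjured regions was lost in 17 of 20 alternatives, among them each left-out library but uninjured C3H library 1, with adjusted p-values up to 0.200 without uninjured B6 library 1, and with the mouse as a random block (0.0508). Its change with injury in C3H, 1.70 (SE 0.75, adjusted p = 0.106), was called without uninjured C3H library 1 (2.37, adjusted p = 0.0239). In uninjured regions the call of Tnfrsf1b was lost without uninjured B6 library 1 (adjusted p = 0.145) or 2 (0.0762), injured B6 library 2 (0.0523), or uninjured C3H library 1 (0.0584), 2 (0.0613) or 3 (0.121). For Tnfrsf12a this was so without uninjured B6 library 2 (0.0926) and uninjured C3H library 2 (0.0647) or 3 (0.0863). When the 2 groups compared were fitted alone, 0 members were called.

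In injured regions 4 of 41 members were called, all higher in C3H, against a background of 7.06% in either direction and 3.72% higher. They were Tnfrsf11a (2.12, SE 0.43, adjusted p = 0.0133), Tnfrsf13b (2.04, SE 0.56, adjusted p = 0.0496), Tnfrsf21 (1.29, SE 0.27, adjusted p = 0.0169) and Tnfrsf1b (1.20, SE 0.28, adjusted p = 0.0277). Tnfrsf13b was tested only because of its values in the injured C3H libraries, the group in which it was called higher. Without injured C3H library 2 or without injured B6 library 1 the count was 0. Without injured C3H library 2 the adjusted p-values of Tnfrsf11a, Tnfrsf13b, Tnfrsf21 and Tnfrsf1b were 0.269, 0.497, 0.249 and 0.417, and without injured B6 library 1 they were 0.0532, 0.102, 0.0672 and 0.109. Leaving out injured B6 library 2 (0.0544) or 3 (0.0511) also ended the call of Tnfrsf1b, and injured C3H library 1 that of Tnfrsf21 (0.0533). The call of Tnfrsf13b was lost in 12 of 20 alternatives, with the mouse as a random block (0.0631) among them, and was kept without uninjured B6 library 2. Tnfrsf12a, higher in uninjured C3H regions, was not called in injured ones (-0.46, SE 0.28, adjusted p = 0.352). These comparisons share libraries with the injury comparisons and are not independent of them.

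Downstream of the receptors, a list of 40 genes of the signalling pathway was measured in full. In injured C3H regions 12 rose and 2 fell, a share of 35% against the background of 30.7%, with a median change of 0.42. The kinase Ikbke rose by 3.10 (SE 0.53, adjusted p = 0.00155), from 64.4, 64.9 and 22.2 to 234 and 671. Tnfaip3 (A20), an inhibitor of NF-kappa B signalling that NF-kappa B itself induces, rose by 1.79 (SE 0.47, adjusted p = 0.0140), and the inhibitor Nfkbie by 1.76 (SE 0.30, adjusted p = 0.00157). Nfkbib, a related inhibitor, fell by 0.70 (SE 0.24, adjusted p = 0.0463) and the death domain adaptor Fadd by 0.66 (SE 0.20, adjusted p = 0.0279). Without injured C3H library 2 only 4 of the 40 were called, all higher, and without injured C3H library 1, uninjured C3H library 2 or uninjured C3H library 3 it was 8, 9 and 7 higher and 0, 0 and 1 lower. When the 2 C3H groups were fitted alone 11 were higher and 0 lower, and the calls of Tnfaip3 (adjusted p = 0.0578), Fadd (0.0614) and Nfkbib (0.0931) were lost. The call of Tnfaip3 was also lost without injured C3H library 2 (1.08, adjusted p = 0.200) or uninjured C3H library 3 (0.0525), that of Fadd without either injured C3H library or uninjured C3H library 2 or 3 (0.0615 to 0.155) and with the mouse as a fixed block (0.0612). The call of Nfkbib was kept without uninjured B6 library 3 or uninjured C3H library 1 and lost without any other 1 library (adjusted p = 0.0514 to 0.337).

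The other pathway genes that rose in C3H were Ripk1, Ripk3, Casp8, Cflar and Birc3 of the cell death branch, Map3k14, Ikbkb and Nfkb1 of the NF-kappa B branch, and Adam17, the protease that sheds TNF. Without injured C3H library 2 the calls of Ripk1 and Casp8 were kept and the others were lost: Ripk3 (adjusted p = 0.0699), Cflar (0.168), Birc3 (0.442, with a change of 0.51 against 1.18), Map3k14 (0.0919), Ikbkb (0.288), Nfkb1 (0.187) and Adam17 (0.0778). Birc3 was also not called under quantile normalisation (0.0537), with the C3H groups alone (0.117) or without any of 5 other libraries (0.0510 to 0.113), and Ripk3 not with the C3H groups alone (0.0600) or without injured C3H library 1 (0.148). Leaving out single other C3H libraries also ended the calls of Cflar, Map3k14, Ikbkb and Nfkb1 (0.0553 to 0.0905), and the mouse as a fixed block that of Nfkb1 (0.0527). In B6 0 of the 40 were called by limma, edgeR or DESeq2. At an unadjusted p below 0.05 limma gave 6, all higher, against 6.87% of all genes. For the strain difference of the injury effect limma and edgeR called 0 of the 40, DESeq2 called Ikbke (2.34, adjusted p = 0.0257) and Ripk1 (1.01, adjusted p = 0.0498), and the fit with the mouse as a random block called Casp8 (0.94, adjusted p = 0.0419). At an unadjusted p below 0.05 limma gave 5 of the 40, close to the 14.1% of all genes. Tnip1, a partner of A20, was higher in C3H in uninjured (1.14, SE 0.17, adjusted p = 0.00382) and injured regions (0.77, SE 0.20, adjusted p = 0.0369), and Adam17 in injured regions (0.91, SE 0.24, adjusted p = 0.0434). In injured regions both calls were lost without any 1 injured library of either strain, without uninjured C3H library 3 and without uninjured B6 library 1 (adjusted p up to 0.395 for Tnip1 and 0.392 for Adam17), and that of Adam17 also without uninjured B6 library 2 (0.0541). Of 11 superfamily and TRAF-related genes that the symbols do not pick out, 10 were tested and 2 rose in injured C3H regions, against 15.3% of all genes, Traf3ip3 (2.35, SE 0.57, adjusted p = 0.00967) and Eda2r, a receptor for ectodysplasin (1.81, SE 0.45, adjusted p = 0.0105), and 0 were called in B6 by limma, edgeR or DESeq2 (1 at an unadjusted p below 0.05 by each, with a higher value). The call of Traf3ip3 was lost without injured C3H library 2 (adjusted p = 0.113) and that of Eda2r without injured C3H library 1 (0.0868).

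**Figure D5:**
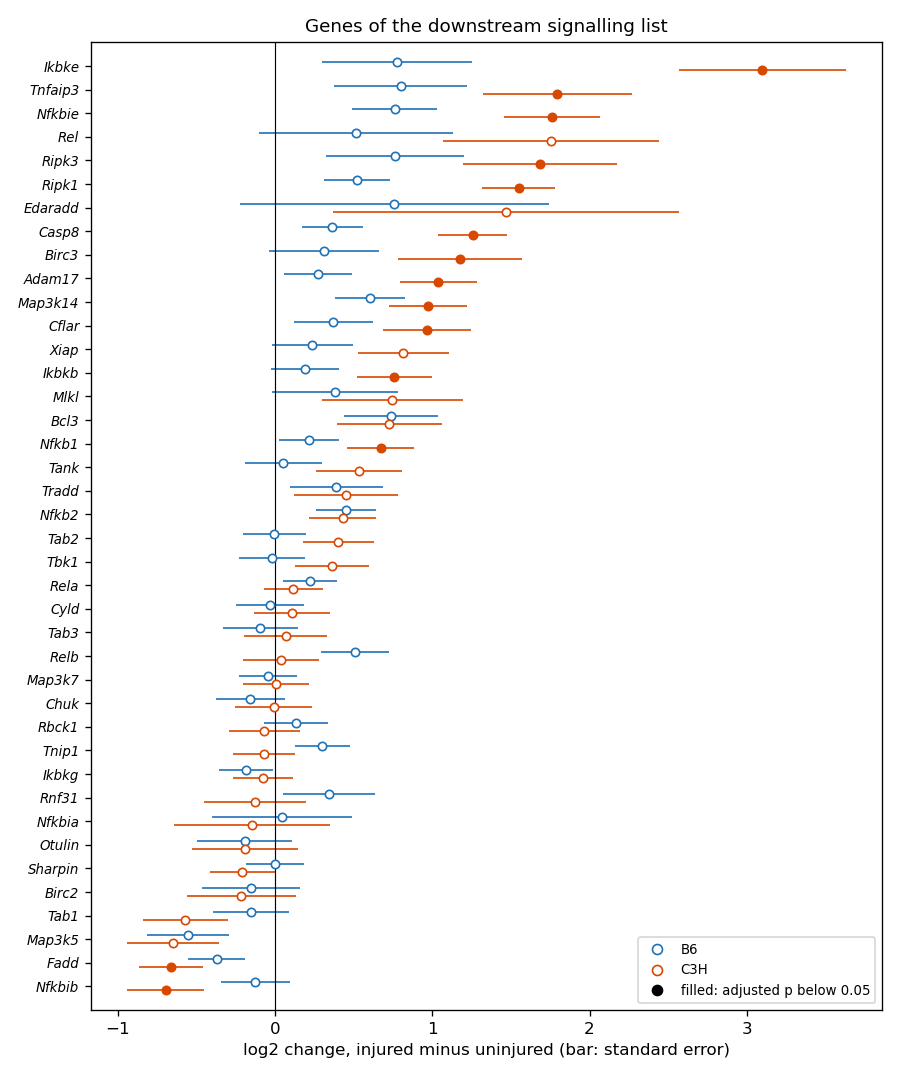
Log2 change with injury of the 40 genes of the downstream signalling list in B6 (blue) and C3H (orange), ordered by the C3H value, with the standard error as a bar and filled points where the adjusted p was below 0.05. The 14 filled points are all of C3H, from Ikbke at 3.10 to Nfkbib at -0.70.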

How the data were processed

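RNA sequencing was analysed in 11 libraries. Per the submitters' processing notes the authors used TopHat2 2.0.11, HTSeq 0.6.1 and DESeq with build mm9. Not given in the sources used here are the DESeq version, annotation, strandedness and filters. The deposited values are a signal of gene counts divided by size factors: in each library all values (100%) were whole multiples of 1 step within 1e-06, and the reads recovered this way numbered 9699985 to 22138459 per library, which sets the precision of low values.

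Limma 3.58.1 in R 4.3.3 (moderated by a mean-variance trend, two-sided) was run on log2(value + 1), pseudocount 1, over all 4 groups together (7 residual degrees of freedom), for genes that reached 10 in 2 libraries or more; 523 genes did not. Alternatives were other pseudocounts, filters and scalings, edgeR 4.0.16 and DESeq2 1.42.0 on the recovered reads, the mouse as a block, the compared groups alone and each library left out; the scripts were tested on simulated data. The labels name the mouse of each region, and the 2 regions of a mouse deviated together with correlations of 0.276, -0.014 and 0.524 in B6 and 0.305 and 0.575 in C3H (0.392 as the fitted random block).

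Members are given in full when called in any comparison or, together with their known ligands and receptors, when among the main pairs (Tnf, Tnfrsf1a, Tnfrsf1b, Fas, Cd40, Tnfsf11, Tnfrsf11a, Tnfrsf11b, Tnfsf12, Tnfrsf12a); Cd27, Ltbr, Tnfsf14, Tnfrsf14 and Calcr were added after their values were seen. Of the list genes, the 3 largest rises and falls are given with values. Members, lists and roles were chosen with earlier results of these data known. Exon lengths and transcripts came from GENCODE M21 (GRCm38) and promoters from RefSeq (GRCm38.p6); no coordinate of mm9 was used.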

Additional observations from a re-analysis of the deposited data

Results flagged for a closer look

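The change of Tnfrsf1b with injury differed between the strains by 2.34 on the log2 scale (C3H minus B6), a difference that passed limma's test of the difference itself. All 5 mice with both regions had the higher value in the injured region. The change of Tnfrsf12a differed by -1.70 in the same test, with higher values in the injured region of 3 of 3 B6 mice and of 0 of 2 C3H mice. The call of Tnfrsf12a was lost in 11 of 21 alternatives. That of Tnfrsf1b was lost in 1 of 21, the one without injured C3H library 2.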

How the results depend on the processing

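Members called for injury in C3H numbered 15, and 7 to 18 when 1 library was left out, 7 of them without injured C3H library 2. For B6 the count was 0 in all settings run. For the strain difference (2 called) the count was 1 with a pseudocount of 0.5, 5 by DESeq2, 6 with the mouse as a random replicate block and 3 as a fixed one, and 0 to 3 with 1 library left out. For C3H against B6, the uninjured count of 3 was 0 with the compared groups alone and 0 to 2 with 1 library left out, and the injured count of 4 was 7 and 0 to 4. For C3H the random block called 20 members and the fixed one 16, and the blocks changed no call of a member other than those given above. Over all genes the random block called 6166 and the fixed one 5129 for C3H, against 4527 without a block. For the strain difference these were 777 and 485, with 722 by DESeq2, against 231. The compared groups alone gave 191 genes for C3H against B6 in uninjured regions and 1562 in injured ones, against 458 and 1042. For C3H and for the strain difference, calls over all genes also fell without injured C3H library 2. Among the 24 members described one by one, changes with injury that were not called changed sign as follows: in B6, Cd40 under quantile normalisation (-0.053) and with 1 library left out (-0.093 to 0.30), Tnfsf11 likewise (-0.10, and -0.29 to 0.91), Tnfsf12 under TMM scaling (0.0084) and with 1 library left out (-0.27 to 0.23), and with 1 library left out Tnfsf13b (-0.89 to 0.19) and Tnfsf15 (-0.10 to 0.69); in C3H, Cd40 under quantile normalisation (-0.29) and with 1 library left out (-0.50 to 0.63), and with 1 library left out Fas (-0.82 to 0.047), Tnfsf10 (-0.30 to 0.15), Tnfsf13 (-0.038 to 1.10) and Tnfrsf25 (-0.75 to 0.23). Of the 17 other tested members, none of them called, 6 changed sign under some setting in B6 (Tnfrsf14, Tnfrsf17, Tnfsf9, Tnfsf14, Tnfsf18 and Traf6) and 6 in C3H (Ltb, Tnfrsf4, Tnfrsf17, Tnfsf18, Traf2 and Traf3), where Tnfrsf4 was at -0.64 by DESeq2 and Traf2 at -0.15 without injured C3H library 1. The cause was not tested. Quantile normalisation moved the C3H median of all genes to -0.11 and of the members to 0.43. With 2 or 3 libraries a group, 1 of them often decides a call, and members under 20 reads a group are limited by counting.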
